A study of Rattus norvegicus with 15 samples.

Results

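The 9 genes described here are Nfe2l2, which encodes the transcription factor NRF2, its repressor or partner genes Keap1, Bach1 and Mafg, and 5 genes of enzymes that supply NADPH or work beside those that do, Pgd, Taldo1, Tkt, Me1 and Idh1. They were chosen by name: each non-control probe whose transcript accession maps to one of these rat symbols was taken, which gave 11 probes for 9 of the 19803 genes or unnamed transcripts tested (called genes below). All 11 probes were well above background on all 15 arrays. The arrays measured RNA of primary hepatocytes from male Wister rats (the labels' spelling), bought cryopreserved, pre-cultured for 24 h and then exposed for 24 h. The compounds were 2,7-naphthalenediol and 1,5-naphthalenediol, then 1-naphthol and the parent naphthalene, each at 30 µM, and DMSO was the control, with 3 arrays per group. Naphthalene carries no hydroxyl group, 1-naphthol carries a single one, and both diols carry a hydroxyl group on each ring. The design text calls the samples of a condition independent experiments. Whether they came from different donor animals is not given in the sources used here, so p-values measure the spread between these arrays.

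NRF2 is a transcription factor that is made continuously and, in unstressed cells, held by KEAP1 and passed to a CUL3 ubiquitin ligase for degradation. Electrophiles such as quinones modify cysteines of KEAP1, after which NRF2 accumulates, pairs with a small MAF protein such as MAFG and binds antioxidant response elements, where BACH1 with a small MAF can repress. Its best known targets detoxify quinones and make glutathione, and they also include enzymes that reduce NADP to NADPH, which quinone reduction and glutathione recycling consume. In liver, NADPH comes mainly from the oxidative pentose phosphate pathway (PGD among its enzymes), malic enzyme (ME1) and cytosolic isocitrate dehydrogenase (IDH1), while transketolase (TKT) and transaldolase (TALDO1) return pentose phosphates to glycolysis. Much of the control of KEAP1 and NRF2 acts on the proteins, which these arrays do not measure.

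The promoters of 4 of the genes are shown because the antioxidant response element is the site through which NRF2 acts. They are RefSeq sequences of build GRCr8, from 250 bases before to 50 bases after the annotated start, on the gene's own strand. All 9 genes matched a promoter by symbol. Capitals mark a match to the core TGACNNNGC, searched on both strands. Me1 (chr8:96540195-96540494, minus strand), Nfe2l2 (chr3:81028950-81029249, minus strand) and Idh1 (chr9:74049425-74049724, minus strand) each held 1 match, whose first base lay at -167 in Me1, at -83 in Idh1 and at +39 in Nfe2l2, counted from the annotated start. Pgd (chr5:164881980-164882279, minus strand) is shown beside them as an enzyme gene with no match in this window. For Me1 and Pgd the start used is the upstream end of the annotated gene. For Idh1 and Nfe2l2 it lies inside the annotated gene, downstream of that end.
Me1: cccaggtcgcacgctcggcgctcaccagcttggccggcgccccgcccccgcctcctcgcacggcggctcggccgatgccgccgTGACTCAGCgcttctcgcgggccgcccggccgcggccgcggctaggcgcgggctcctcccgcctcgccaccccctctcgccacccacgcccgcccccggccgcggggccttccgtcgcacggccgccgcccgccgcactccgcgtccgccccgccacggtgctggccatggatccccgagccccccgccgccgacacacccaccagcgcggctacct
Nfe2l2: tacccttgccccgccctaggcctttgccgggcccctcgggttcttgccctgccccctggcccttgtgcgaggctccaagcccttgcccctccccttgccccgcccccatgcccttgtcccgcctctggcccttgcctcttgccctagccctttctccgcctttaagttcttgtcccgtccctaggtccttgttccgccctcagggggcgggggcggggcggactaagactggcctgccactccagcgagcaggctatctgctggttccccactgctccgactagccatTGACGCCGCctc
Idh1: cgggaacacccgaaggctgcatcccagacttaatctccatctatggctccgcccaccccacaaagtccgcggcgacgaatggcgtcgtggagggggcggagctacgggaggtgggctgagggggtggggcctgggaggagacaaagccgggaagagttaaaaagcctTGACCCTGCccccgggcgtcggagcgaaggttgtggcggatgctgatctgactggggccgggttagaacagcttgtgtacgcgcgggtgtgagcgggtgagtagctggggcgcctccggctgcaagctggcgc
Pgd: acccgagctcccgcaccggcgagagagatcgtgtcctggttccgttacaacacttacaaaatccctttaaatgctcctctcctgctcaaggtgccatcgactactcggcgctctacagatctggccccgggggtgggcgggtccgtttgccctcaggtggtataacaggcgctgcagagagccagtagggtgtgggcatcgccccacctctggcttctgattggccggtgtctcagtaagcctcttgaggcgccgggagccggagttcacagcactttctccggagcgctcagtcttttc
Keap1, Bach1, Mafg, Taldo1 and Tkt had no match in their windows either. Of 33469 rat promoter windows of the same length, 12.1% held the core. The 5-letter core GCGTG of the xenobiotic response element, searched on both strands, was in the windows of Keap1, Bach1, Mafg, Taldo1 and Me1 and in 29.7% of all windows. It did not overlap the antioxidant core in any of the 9. A match of letters is a description and not a measured binding site.

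Levels are given as log2 intensity minus the log2 of the array's own 75th percentile of intensity, so a level of 0 is as bright as that percentile. Levels are compared between groups for 1 probe and not between genes. For genes with more than 1 probe, the brightest was used. Differences between groups are log2 differences with their standard error (SE), from limma fitted to all 19803 genes, and a gene rose or fell where its Benjamini-Hochberg adjusted p was below 0.05. On each array 57.4% to 61.0% of the gene spots read well above background, with a 75th percentile between 1718 and 2074 intensity units, and arrays of a group correlated at 0.996 or more. All 10 hepatocyte markers were above background, with a summed level of 586 to 631 times the 75th percentile on the compound arrays and 631 to 650 times on the DMSO arrays. The part of this gap in the results was not tested, and in bulk RNA fewer cells of a type and less RNA per cell cannot be told apart. Gene by gene, 3 of the 10 rose and 0 fell with 1,5-naphthalenediol, where 9.41% of all genes rose and 12.7% fell. With naphthalene 0 rose and 3 fell (12.5% and 12.6% of all genes). With 2,7-naphthalenediol and 1-naphthol 0 passed (11.0% and 20.8% of all genes). These counts are from the model without the slides described below. The summed levels of stellate, macrophage, endothelial, bile duct and lymphocyte markers were at most 2.15 times that percentile, and Lrat, Clec4f, Stab2, Krt19 and Cd3e were among the markers not above background. The 3 of 7 stellate markers above background summed to 0.0678 to 0.0915 times the percentile on the compound arrays and 0.0599 to 0.0663 times on the DMSO arrays. The 2 of 5 bile duct markers above background summed to 0.456 to 0.549 times on the arrays of the 3 hydroxylated compounds and 0.612 to 0.645 times with naphthalene, against 0.596 to 0.649 times with DMSO. The part of either list in the results was not tested. The arrays lay on 2 slides. Slide 1 held the 3 arrays each of 2,7-naphthalenediol and DMSO and 2 of 1,5-naphthalenediol, and slide 2 held the third array of 1,5-naphthalenediol and the 3 each of 1-naphthol and naphthalene. The effect of 1-naphthol or naphthalene therefore shares its slide difference with DMSO, and a model with slide as a block is set beside the counts and beside the calls that it ends. Array 3 of 1,5-naphthalenediol alone links the slides. Among DMSO and the diols, that model is therefore the same fit as leaving out this array.

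Changes of the 9 genes were small. In the F test of limma over the 5 groups 6 of the 9 passed, where 44.7% of all genes did: Nfe2l2 (adjusted p = 0.00333), Mafg, Pgd, Taldo1, Me1 and Idh1. Keap1 (adjusted p = 0.797), Bach1 (adjusted p = 0.873) and Tkt (adjusted p = 0.186) did not pass. Against DMSO, the called changes ran from -0.16 for Idh1 with naphthalene to 0.37 for Mafg with the same compound. In the order of the 5 group means, no 2 neighbouring groups differed beyond the threshold for any of the 9 genes, so each difference lies between groups further apart in that order.

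**Figure D1:**
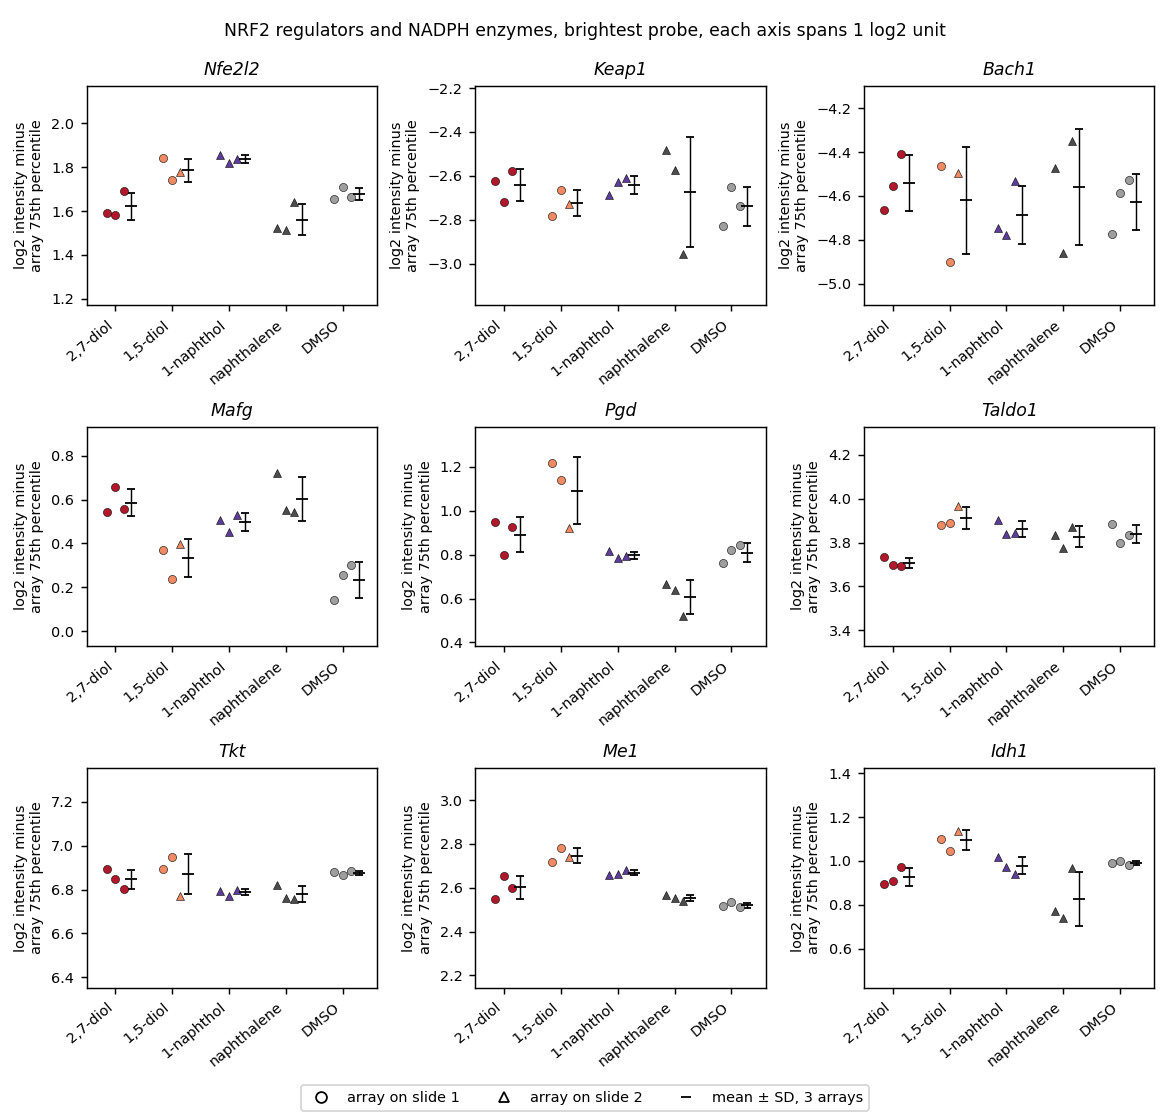
Level of each gene on each array (log2 intensity minus the array's 75th percentile, brightest probe) for 2,7-naphthalenediol and 1,5-naphthalenediol, then 1-naphthol, naphthalene and DMSO, with circles for slide 1, triangles for slide 2, and bars for mean ± SD of 3 arrays. Every axis spans 1 log2 unit, so heights compare between panels. The 3 arrays of 1,5-naphthalenediol lie at 2.72 to 2.78 for Me1, above the 3 DMSO arrays at 2.51 to 2.53.

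Among the regulators, Nfe2l2 had levels of 1.85, 1.82 and 1.84 on the 1-naphthol arrays, 1.84, 1.74 and 1.78 with 1,5-naphthalenediol, 1.59, 1.58 and 1.69 with 2,7-naphthalenediol, 1.53, 1.51 and 1.64 with naphthalene, and 1.66, 1.71 and 1.67 with DMSO. The 1-naphthol and 1,5-naphthalenediol arrays all lay above the DMSO arrays, and the 3 naphthalene arrays all lay below them. Only the rise with 1-naphthol passed the threshold (0.16 ± 0.0455, 1.12-fold, limma adjusted p = 0.0283). The difference was 0.11 ± 0.0455 with 1,5-naphthalenediol (adjusted p = 0.104), -0.05 ± 0.0455 with 2,7-naphthalenediol (adjusted p = 0.45) and -0.12 ± 0.0455 with naphthalene (adjusted p = 0.0791), which without naphthalene array 3 passed at -0.16 (adjusted p = 0.0279). In the model with slide, the 1-naphthol difference was 0.17 ± 0.0837 and no longer passed (adjusted p = 0.292). Leaving out DMSO array 1 or 3 or any 1-naphthol array also ended this call, at adjusted p up to 0.0841. Quantile scaling, median scaling and no filter on dim probes each ended it too, and its lowest value under an alternative was 0.11. The highest difference of Nfe2l2, 0.28, lay between 1-naphthol and naphthalene.

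Keap1, the sensor that holds NRF2, overlapped between every compound and DMSO. It lay at -2.72 to -2.58 with 2,7-naphthalenediol, -2.78 to -2.66 with 1,5-naphthalenediol, -2.69 to -2.61 with 1-naphthol, -2.96 to -2.48 with naphthalene and -2.83 to -2.65 with DMSO. Its 95% confidence intervals against DMSO reached from -0.20 to 0.31 over the 4 compounds, and none passed. Array 3 of naphthalene was its lowest of all, and without that array naphthalene gave 0.21 (adjusted p = 0.0338). Bach1, the repressor at NRF2 sites, was dim, at 63.5 to 92.6 intensity units over all arrays. Its levels lay at -4.67 to -4.41 with 2,7-naphthalenediol, -4.90 to -4.46 with 1,5-naphthalenediol, -4.78 to -4.53 with 1-naphthol, -4.86 to -4.35 with naphthalene and -4.77 to -4.53 with DMSO. All groups overlapped. The intervals for Bach1 against DMSO spanned -0.37 to 0.40, and its second, dimmer probe gave no call either (differences of -0.09 to 0.11).

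Mafg, a small MAF partner of both NRF2 and BACH1, had 2 probes, mapped to different transcript records, that read alike for 2,7-naphthalenediol and differently for 1-naphthol and naphthalene. On the brighter probe its level was 0.54, 0.66 and 0.56 with 2,7-naphthalenediol, 0.37, 0.24 and 0.40 with 1,5-naphthalenediol, 0.51, 0.45 and 0.53 with 1-naphthol, 0.72, 0.55 and 0.54 with naphthalene, and 0.14, 0.26 and 0.30 with DMSO. On the dimmer probe it was -0.21, -0.21 and -0.15 with 2,7-naphthalenediol, -0.35, -0.41 and -0.64 with 1,5-naphthalenediol, -0.53, -0.60 and -0.55 with 1-naphthol, -0.51, -0.54 and -0.78 with naphthalene, and -0.58, -0.52 and -0.48 with DMSO. The arrays of 2,7-naphthalenediol lay above those of DMSO on both probes. The arrays of 1-naphthol and naphthalene lay above them on the brighter probe alone.

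On the brighter probe Mafg rose with 2,7-naphthalenediol (0.35 ± 0.0633, 1.28-fold, limma adjusted p = 0.00716), with 1-naphthol (0.26 ± 0.0633, adjusted p = 0.0149) and with naphthalene (0.37 ± 0.0633, adjusted p = 0.0034), and was at 0.10 ± 0.0633 with 1,5-naphthalenediol (adjusted p = 0.279). The dimmer probe, fitted with every probe as its own feature, gave 0.33 ± 0.0796 for 2,7-naphthalenediol (adjusted p = 0.0245). It gave 0.06 for 1,5-naphthalenediol (adjusted p = 0.644), -0.03 for 1-naphthol (adjusted p = 0.81) and -0.08 for naphthalene (adjusted p = 0.47). In the model with slide, the brighter probe's differences were 0.17 ± 0.113 for 1-naphthol (limma adjusted p = 0.464) and 0.28 ± 0.113 for naphthalene (adjusted p = 0.209). For 2,7-naphthalenediol the difference was 0.35 ± 0.0626 and passed. The block could not move this value, since the arrays of 2,7-naphthalenediol and DMSO all lie on slide 1. The rise with 2,7-naphthalenediol thus rests on arrays of 1 slide and on both probes, and it passed under every alternative run. The 1-naphthol call ended without DMSO array 1 (adjusted p = 0.0502) or 1-naphthol array 3 (adjusted p = 0.0561). The rises with 1-naphthol and naphthalene were not called on the second probe, where the values were below 0.

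**Figure D2:**
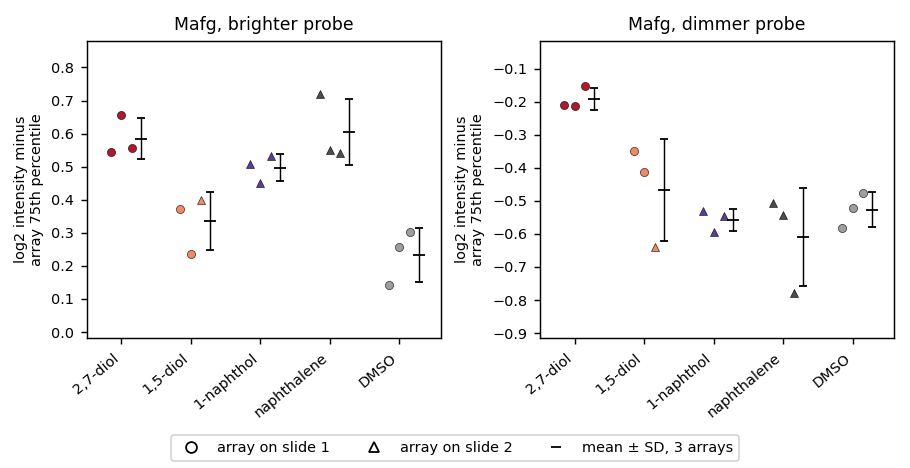
Level of Mafg on each array by its brighter probe (left) and its dimmer probe (right), in log2 intensity minus the array's 75th percentile, for the 4 compounds and DMSO, with circles for slide 1, triangles for slide 2, and bars for mean ± SD of 3 arrays. Both panels span the same height: 2,7-naphthalenediol lies above DMSO in both, and naphthalene lies above it on the brighter probe (0.54 to 0.72 against 0.14 to 0.30) but not on the dimmer one (-0.78 to -0.51 against -0.58 to -0.48).

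Among the NADPH enzymes, Me1 and Pgd rose with 1,5-naphthalenediol. Me1, the cytosolic malic enzyme that makes NADPH while turning malate into pyruvate, had levels of 2.72, 2.78 and 2.74 with 1,5-naphthalenediol, 2.66, 2.66 and 2.68 with 1-naphthol, 2.55, 2.66 and 2.60 with 2,7-naphthalenediol, 2.57, 2.55 and 2.54 with naphthalene, and 2.52, 2.53 and 2.51 with DMSO. All arrays of all 4 compounds lay above the highest DMSO array, although 2,7-naphthalenediol and naphthalene did not pass the test. The rise was 0.23 ± 0.0342 with 1,5-naphthalenediol (1.17-fold, limma adjusted p = 0.00077) and 0.15 ± 0.0342 with 1-naphthol (1.11-fold, adjusted p = 0.0126). The differences were 0.08 ± 0.0342 with 2,7-naphthalenediol (adjusted p = 0.14) and 0.03 ± 0.0342 with naphthalene (adjusted p = 0.515). Blocked by slide, which here leaves out array 3 of 1,5-naphthalenediol, that compound had 0.23 ± 0.0384 (limma adjusted p = 0.00226). In the model with slide 1-naphthol had 0.15 ± 0.0618 (adjusted p = 0.21). The Me1 call with 1-naphthol also ended with normexp background, median scaling or no filter on dim probes. Its lowest value under an alternative was 0.05. On slide 1 alone, the 2 arrays of 1,5-naphthalenediol against DMSO gave 0.23 ± 0.0459 (adjusted p = 0.0199).

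Pgd encodes 6-phosphogluconate dehydrogenase, an NADPH-making enzyme of the oxidative pentose phosphate pathway. Its level was 1.22, 1.14 and 0.92 with 1,5-naphthalenediol, 0.95, 0.80 and 0.93 with 2,7-naphthalenediol, 0.82, 0.78 and 0.80 with 1-naphthol, 0.66, 0.64 and 0.52 with naphthalene, and 0.76, 0.82 and 0.85 with DMSO. The 1,5-naphthalenediol arrays lay above, and the naphthalene arrays below, all DMSO arrays, and the lowest 1,5-naphthalenediol array is the one on slide 2. Pgd rose by 0.28 ± 0.0702 with 1,5-naphthalenediol (1.22-fold, limma adjusted p = 0.0136). The block by slide, the same fit here as leaving out array 3 of 1,5-naphthalenediol, gave 0.37 ± 0.0568 (limma adjusted p = 0.00141). Leaving out array 1 of 1,5-naphthalenediol gave 0.22 (adjusted p = 0.0537). The naphthalene difference was -0.20 ± 0.0702 (adjusted p = 0.0534) and 0.06 with the slide as a block, so its direction turned with that model. It passed without 1,5-naphthalenediol array 1 or 3, which share the estimate of the spread (adjusted p = 0.0379 and 0.0136). With 2,7-naphthalenediol and 1-naphthol the differences were 0.08 ± 0.0702 and -0.01 ± 0.0702.

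Idh1, the cytosolic isocitrate dehydrogenase, had levels of 0.77, 0.74 and 0.97 with naphthalene, 1.02, 0.97 and 0.94 with 1-naphthol, 1.10, 1.05 and 1.14 with 1,5-naphthalenediol, 0.89, 0.91 and 0.97 with 2,7-naphthalenediol, and 0.99, 1.00 and 0.98 with DMSO. The 1,5-naphthalenediol arrays lay above, and the naphthalene and 2,7-naphthalenediol arrays below, all DMSO arrays. Idh1 fell by 0.16 ± 0.0545 with naphthalene (limma adjusted p = 0.0472), a call at the edge of the threshold that leaving out any of 13 single arrays ended. Array 3 of naphthalene lay well above the other two, and without array 2 the difference was -0.12 (adjusted p = 0.162). With the slide as a block it was -0.23 ± 0.0983 (adjusted p = 0.234). With the other compounds Idh1 was at 0.11 ± 0.0545 (1,5-naphthalenediol), -0.06 ± 0.0545 (2,7-naphthalenediol) and -0.01 ± 0.0545 (1-naphthol).

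Neither enzyme of the non-oxidative branch passed against DMSO. Taldo1, transaldolase, had levels of 3.73, 3.70 and 3.69 with 2,7-naphthalenediol, 3.88, 3.89 and 3.97 with 1,5-naphthalenediol, 3.90, 3.84 and 3.84 with 1-naphthol, 3.83, 3.78 and 3.87 with naphthalene, and 3.88, 3.80 and 3.84 with DMSO. The 2,7-naphthalenediol arrays lay below all others. Their difference from DMSO was -0.13 ± 0.04 (limma adjusted p = 0.0556). This difference passed with the slide as a block, which here is the fit without 1,5-naphthalenediol array 3 (adjusted p = 0.0377). It passed as well without naphthalene array 3. Taldo1 is read by 10 spots on each array, whose SD within an array had a median of 0.0467. Tkt, transketolase, lay at 6.80 to 6.89 with 2,7-naphthalenediol, 6.77 to 6.95 with 1,5-naphthalenediol, 6.77 to 6.80 with 1-naphthol, 6.76 to 6.82 with naphthalene and 6.87 to 6.89 with DMSO. Its 1-naphthol and naphthalene arrays, all on slide 2, lay below the DMSO arrays, with differences of -0.09 ± 0.0445 and -0.10 ± 0.0445. The block by slide turned both positive, to 0.06 and 0.05, and neither model called them.

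Counted by compound, 1 of the 9 genes passed with 2,7-naphthalenediol (Mafg), where 11.0% of all genes did, and 2 with 1,5-naphthalenediol (Pgd and Me1), where 22.1% did. With 1-naphthol 3 passed (Nfe2l2, Mafg and Me1), against 20.8% of all genes, and with naphthalene 2 passed (Mafg higher, Idh1 lower), against 25.1%. These counts are near the shares over all genes and are no result about the 9 genes as a group. In the model with slide, the shares of all genes called were 15.1%, 22.1%, 1.13% and 0.727% in the same order, and the 9 genes gave 2, 2, 0 and 0 calls (3, 3, 2 and 2 at limma's unadjusted p below 0.05). In that model 1-naphthol and naphthalene meet DMSO only through the 1,5-naphthalenediol arrays on both slides, and a slide effect and a compound effect can otherwise not be told apart for them. No share of all genes was counted at the unadjusted threshold, here or below, so counts at that threshold have nothing to be read against.

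**Figure D3:**
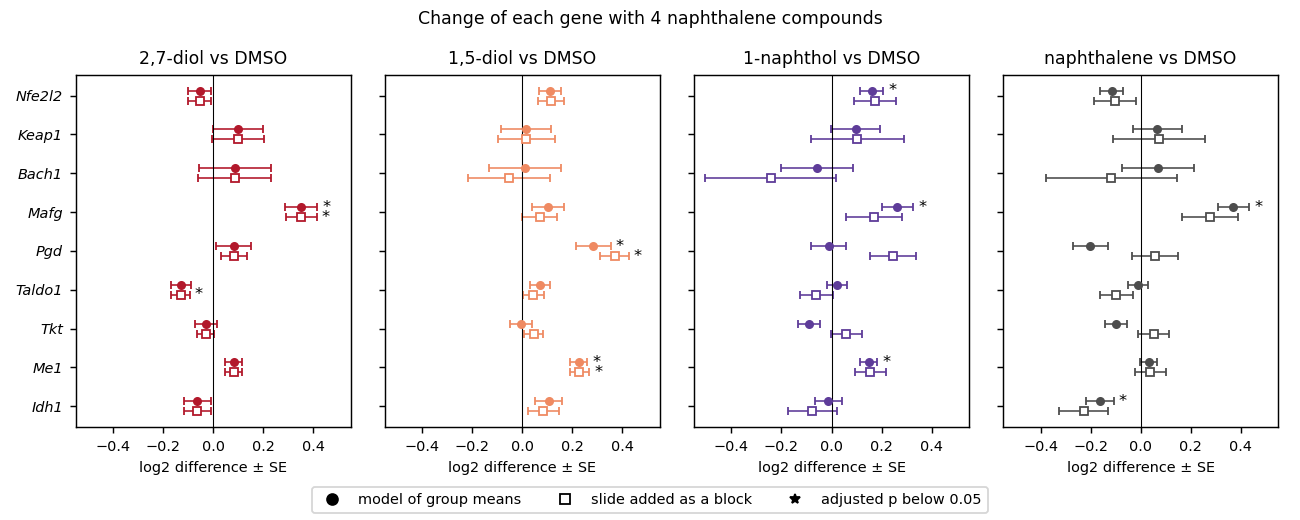
Log2 difference from DMSO with its standard error for each gene, in 1 panel per compound (2,7-naphthalenediol and 1,5-naphthalenediol, then 1-naphthol and naphthalene), with filled circles for the model of group means, open squares for the model with slide as a block, and stars where limma's adjusted p was below 0.05. For 2,7-naphthalenediol the star on Mafg, and for 1,5-naphthalenediol those on Pgd and Me1, stay in both models, and for 1-naphthol and naphthalene no star stays.

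The compounds were also set against each other at their common dose and time, in 6 pairs, with p-values adjusted over all genes within each pair. The diols, which differ in where the hydroxyl groups sit, differed in 4 of the 9 genes (14.7% of all genes were called). Against 2,7-naphthalenediol, 1,5-naphthalenediol had higher Nfe2l2 (0.16 ± 0.0455, adjusted p = 0.0304), Taldo1 (0.20 ± 0.04, adjusted p = 0.00583) and Me1 (0.15 ± 0.0342, adjusted p = 0.0148) and lower Mafg (-0.25 ± 0.0633, adjusted p = 0.0209). The arrays did not overlap for any of these 4 genes, nor for Idh1, which had 0.17 ± 0.0545 (adjusted p = 0.0562). How many of all genes lacked overlap in this pair was not counted, so this is a description only. Single arrays ended the calls of Nfe2l2 (2,7-naphthalenediol 1 or 2, 1,5-naphthalenediol 1 or 3, adjusted p up to 0.109), Mafg (array 2 of either diol, up to 0.0843) and Me1 (2,7-naphthalenediol 1 or 1,5-naphthalenediol 2, up to 0.0591), and leaving out naphthalene array 2 or 3 brought Idh1 past the threshold. For this pair the slide block is again the fit without 1,5-naphthalenediol array 3. With it Taldo1, Me1 and Mafg passed and Nfe2l2 did not (0.17 ± 0.0519, limma adjusted p = 0.0608). Pgd passed as well, at 0.29 ± 0.0568 (adjusted p = 0.00961) against 0.20 ± 0.0702 without the block. The dimmer Mafg probe gave -0.28 ± 0.0796 for the same pair (adjusted p = 0.0391). For Keap1, Bach1 and Tkt the 95% intervals of the difference between the diols were -0.30 to 0.13, -0.39 to 0.24 and -0.07 to 0.12.

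Between 1,5-naphthalenediol and naphthalene, which lacks both hydroxyl groups, 5 of the 9 genes differed (24.9% of all genes). Pgd was higher by 0.48 ± 0.0702 (1.40-fold, limma adjusted p = 0.000609), Idh1 by 0.27 ± 0.0545, Nfe2l2 by 0.23 ± 0.0455 and Me1 by 0.19 ± 0.0342, and Mafg was lower (-0.27 ± 0.0633). In the model with slide, Pgd (0.31 ± 0.0719, adjusted p = 0.0226), Me1 (0.19 ± 0.0485, adjusted p = 0.0366) and Idh1 (0.31 ± 0.0771, adjusted p = 0.0318) still passed. Nfe2l2 (0.22 ± 0.0656, adjusted p = 0.0666) and Mafg (-0.21 ± 0.0886, adjusted p = 0.182) did not. The Mafg difference was positive, 0.14, on its dimmer probe.

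1-naphthol and naphthalene differ by 1 hydroxyl group and lay on the same slide. Of the 9 genes, 1 differed (2.44% of all genes): Nfe2l2 was higher with 1-naphthol by 0.28 ± 0.0455 (1.21-fold, limma adjusted p = 0.0091), with levels of 1.82 to 1.85 against 1.51 to 1.64. The slide block cannot move a difference within 1 slide, and the value was again 0.28 (limma adjusted p = 0.0122). On the slide 2 arrays alone it had an SE of 0.0489 and did not pass (adjusted p = 0.106). Me1 and Idh1 were at 0.12 (95% interval 0.04 to 0.19) and 0.15 (0.03 to 0.27) in this pair and did not pass, although Idh1 passed without naphthalene array 3 (0.22, adjusted p = 0.0228). Between 1,5-naphthalenediol and 1-naphthol, 1 gene passed (9.16% of all genes): Pgd was higher by 0.29 ± 0.0702 (adjusted p = 0.0261), and by 0.12 ± 0.0719 with the slide as a block (adjusted p = 0.466). Leaving out array 1 or 2 of 1,5-naphthalenediol or any 1-naphthol array also ended it, at adjusted p up to 0.0962. For Nfe2l2 and Me1 the 95% intervals of that pair were -0.15 to 0.05 and 0.0037 to 0.15.

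The remaining pairs set 2,7-naphthalenediol, on slide 1, against compounds on slide 2. Against 1-naphthol, 2 genes passed (14.7% of all genes), both lower with 2,7-naphthalenediol: Nfe2l2 (-0.22 ± 0.0455, limma adjusted p = 0.0126) and Taldo1 (-0.15 ± 0.04, adjusted p = 0.0256). Against naphthalene, 1 gene passed (15.8% of all genes), with Pgd higher by 0.28 ± 0.0702 (adjusted p = 0.02). None of the 3 passed with the slide as a block, where Pgd was at 0.03 ± 0.0916. Any of 5 single arrays ended the Taldo1 call (adjusted p up to 0.0922), and 2,7-naphthalenediol 1 or 3 or naphthalene 3 ended that of Pgd (up to 0.0709). The dimmer Mafg probe was higher with 2,7-naphthalenediol in both pairs, by 0.37 ± 0.0796 against 1-naphthol (adjusted p = 0.0146) and by 0.42 ± 0.0796 against naphthalene (adjusted p = 0.0102), while the brighter one had 0.09 and -0.02.

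Other genes of NADPH supply were read from a list of 21, of which 18 were tested. The list had more falls than rises with every compound except 2,7-naphthalenediol. With 1,5-naphthalenediol 1 of its 18 genes rose and 6 fell, where 9.41% of all genes rose and 12.7% fell, and the median difference was -0.10 against -0.01 for all genes. The falls included Rpia, which interconverts pentose phosphates (-0.27 ± 0.0527), Shpk, which makes sedoheptulose 7-phosphate (-0.40 ± 0.0534), and the mitochondrial NADPH-forming Aldh1l2 (-0.40 ± 0.0837). Rpia also fell by 0.34 ± 0.0527 with 1-naphthol and 0.17 ± 0.0527 with naphthalene and Shpk by 0.18 ± 0.0534 with 1-naphthol, and these 3 calls ended with the slide as a block (adjusted p = 0.225, 0.863 and 0.589). Rbks, ribokinase, which phosphorylates ribose, was lower with 1,5-naphthalenediol by its brighter probe (-0.32 ± 0.0395, limma adjusted p = 0.000177), while its dimmer probe gave 0.41 ± 0.0919 (adjusted p = 0.00841), so the probes disagree in direction. The same split held with 2,7-naphthalenediol (-0.19 ± 0.0395 and 0.63 ± 0.0919) and naphthalene (-0.16 ± 0.0395 and 0.44 ± 0.0919), where the call on the brighter probe ended with the slide as a block (-0.19 ± 0.0714, adjusted p = 0.182). With 2,7-naphthalenediol 2 genes of the list rose and 2 fell (6.20% and 4.84% of all genes). With 1-naphthol 2 rose and 4 fell (10.2% and 10.6%), and with naphthalene 3 rose and 7 fell (12.5% and 12.6%). The model with slide gave 2 and 3, 1 and 6, 1 and 0, and 0 and 0 in the order 2,7-naphthalenediol, 1,5-naphthalenediol, then 1-naphthol and naphthalene. At limma's unadjusted p below 0.05, the last of these pairs of counts was 3 and 1.

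**Figure D4:**
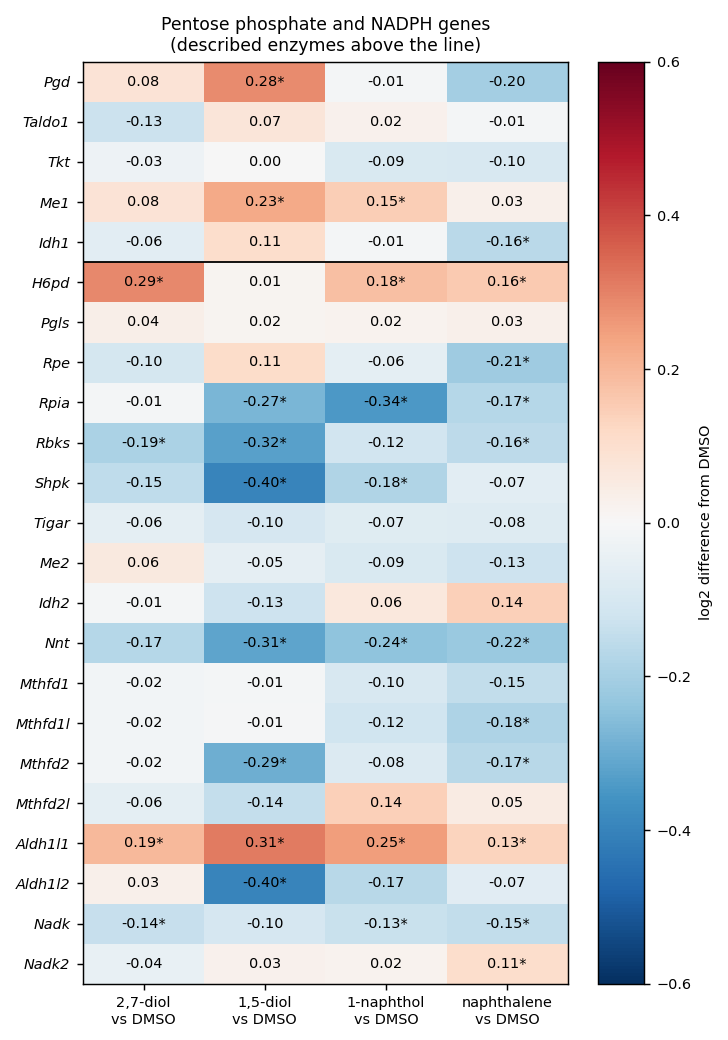
Log2 difference from DMSO (colour and printed value, star where limma's adjusted p was below 0.05) of the 5 enzyme genes described above and, under the line, 18 other pentose phosphate and NADPH genes tested, with 2,7-naphthalenediol and 1,5-naphthalenediol, then 1-naphthol and naphthalene in columns from left to right. Values and stars are of the model of group means. Aldh1l1, which lies outside the rule for named genes, is starred with all 4 compounds, at 0.13 to 0.31. With the slide as a block, 0 of the 18 genes rose with naphthalene.

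Among 20 other genes that act on NRF2 or share its partners, 17 were tested. Rises numbered 4 with 2,7-naphthalenediol, 4 with 1,5-naphthalenediol, 2 with 1-naphthol and 6 with naphthalene, and falls numbered 0, 2, 1 and 3. Of all genes 6.20%, 9.41%, 10.2% and 12.5% rose and 4.84%, 12.7%, 10.6% and 12.6% fell in the same order. In the model with slide these counts were 4, 3, 1 and 0 rises and 0, 3, 0 and 0 falls, and at limma's unadjusted p below 0.05 naphthalene had 4 and 2. Syvn1, an ER ubiquitin ligase that can degrade NRF2, rose with all 4 compounds, by 0.44 ± 0.0427 with 2,7-naphthalenediol, 0.29 ± 0.0427 with 1,5-naphthalenediol, 0.38 ± 0.0427 with 1-naphthol and 0.26 ± 0.0427 with naphthalene, and the call with naphthalene ended with the slide as a block. Cul3, the ligase scaffold that works with KEAP1, rose by 0.25 ± 0.0528 with 1,5-naphthalenediol, 0.20 ± 0.0528 with 2,7-naphthalenediol and 0.18 ± 0.0528 with naphthalene, and its dimmer probe had the same sign with no call. Leaving out any of the 6 arrays compared ended the 2,7-naphthalenediol call of Cul3 (adjusted p up to 0.114), as did median scaling, no filter, the mean of probes and the 2 groups alone, and the naphthalene call ended with the slide as a block (adjusted p = 0.172). The coactivator gene Crebbp rose by 0.51 ± 0.0768 with naphthalene, 0.39 ± 0.0768 with 2,7-naphthalenediol and 0.32 ± 0.0768 with 1-naphthol, and was at 0.23 ± 0.0768 with 1,5-naphthalenediol (limma adjusted p = 0.0529). With the slide as a block the Crebbp calls with naphthalene and 1-naphthol ended (adjusted p = 0.127 and 0.38). Its 2,7-naphthalenediol call ended with the 2 groups alone, and its 1-naphthol call also without DMSO array 3 (adjusted p = 0.0595). The dimmer Crebbp probe had the same sign with every compound and no call (adjusted p = 0.159 to 0.384). Maff, another small MAF gene, fell by 0.28 with 1,5-naphthalenediol, by 0.35 with 1-naphthol and by 0.28 with naphthalene and was at 0.07 with 2,7-naphthalenediol. The Maff calls with 1-naphthol and naphthalene ended with the slide as a block, at -0.50 and -0.42 (adjusted p = 0.128 and 0.175). Leaving out DMSO array 2 or 3, among others, ended all 3 Maff calls (adjusted p up to 0.149). Sqstm1, whose protein p62 binds KEAP1, had 3 probes that disagreed with 1,5-naphthalenediol. The brightest gave -0.12 ± 0.0372 (limma adjusted p = 0.0423). Fitted with every probe as its own feature, it had an adjusted p of 0.0465, another probe gave 0.45 ± 0.0438 (adjusted p = 4.78e-05) and the last -0.07 ± 0.0698. Leaving out any DMSO array, among others, ended the call on the brightest (adjusted p up to 0.128). Normexp, quantile scaling, no filter, the mean of probes, the replicate block, the 2 groups alone and adjustment over all comparisons each ended it too.

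The NRF2 targets read in the same fit give the setting for these changes. Of 20 listed genes 19 were tested, and 8 rose with 2,7-naphthalenediol, 7 with 1,5-naphthalenediol, 5 with 1-naphthol and 1 with naphthalene, while 0, 1, 1 and 2 fell. The shares of all genes were 6.20%, 9.41%, 10.2% and 12.5% for rises and 4.84%, 12.7%, 10.6% and 12.6% for falls. Their median differences were 0.20, 0.17, 0.10 and -0.07 in that order, against -0.02, -0.01, -0.00397 and -0.00225 for all genes. The model with slide gave 8, 8, 5 and 0 rises and 0 falls with every compound, and at limma's unadjusted p below 0.05 naphthalene had 1 rise and 1 fall. Gclm was not analysed here. The quinone reductase Nqo1, which spends NADPH or NADH, had mean levels of -0.26 ± 0.0448 with 2,7-naphthalenediol, 0.96 ± 0.0604 with 1,5-naphthalenediol, 0.57 ± 0.029 with 1-naphthol, -0.60 ± 0.121 with naphthalene and -0.66 ± 0.0677 with DMSO (SD, n = 3 each). Akr7a3, an aflatoxin aldehyde reductase that uses NADPH, rose by 0.31 ± 0.0446, 0.81 ± 0.0446 and 0.51 ± 0.0446 with the first 3 of these compounds and was at -0.05 ± 0.0446 with naphthalene. The glutathione transferase genes Gsta2 and Gstp1 rose by 1.19 ± 0.0714 and 2.29 ± 0.0423 with 1,5-naphthalenediol and by 0.83 ± 0.0714 and 0.92 ± 0.0423 with 1-naphthol, and Gstp1 rose by 0.35 ± 0.0423 with 2,7-naphthalenediol. Gsta2 was at 0.06 ± 0.0714 with 2,7-naphthalenediol and with naphthalene, and Gstp1 at 0.09 ± 0.0423 with naphthalene. Among the 9 genes, no called difference from DMSO exceeded 0.37.

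Lipid synthesis is the other large user of hepatic NADPH, and Me1 is also controlled with the lipogenic genes. The list read here held 21 lipid synthesis genes that use NADPH or share control by the transcription factors SREBP or ChREBP. Genes that use NADPH were not counted apart from the rest. All 21 were tested, and 2 rose and 13 fell with 1,5-naphthalenediol (9.41% and 12.7% of all genes). The median difference was -0.25 against -0.01 for all genes. Acly, which makes cytosolic acetyl-CoA, fell by 0.59 ± 0.0621 and the farnesyl diphosphate synthase Fdps by 0.60 ± 0.0405. The sterol pathway gene Hmgcs1 fell by 0.54 ± 0.0485 and the lipogenic regulator Thrsp by 0.61 ± 0.0888. Me1 rose on the same arrays, and any relation of its rise to these falls was not tested. Acly, Fdps and Hmgcs1 also fell with 2,7-naphthalenediol and 1-naphthol, by 0.21 to 0.29, and Fdps with naphthalene, by 0.18 ± 0.0405. The calls with 1-naphthol and naphthalene ended with the slide as a block (limma adjusted p = 0.133 to 0.428). With 2,7-naphthalenediol the Acly and Hmgcs1 calls ended with quantile scaling, no filter, slide 1 alone and the 2 groups alone. Leaving out single arrays ended them too, at adjusted p up to 0.122 and 0.0738, while no alternative ended that of Fdps. The counts of the list were 1 rise and 5 falls with 2,7-naphthalenediol (6.20% and 4.84% of all genes), 2 and 6 with 1-naphthol (10.2% and 10.6%) and 3 and 3 with naphthalene (12.5% and 12.6%). They were 1 and 5, 0 and 0, and 0 and 0 with the slide as a block, where 1,5-naphthalenediol again had 2 and 13. At limma's unadjusted p below 0.05 that model gave 1 and 4 with 1-naphthol and 3 and 0 with naphthalene.

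For each of the 9 genes, the named genes with the most similar levels over the 15 arrays were found by Pearson correlation, which here reflects groups and slides that the arrays share and is given as a description. Me1 was most like Gsta3, a glutathione transferase gene, and Aspg (both r = 0.953). Mafg was most like Fam193b (r = 0.943) and Klhl21 (r = 0.936), Pgd like Ppp6r1 (r = 0.942) and Eif4e (r = 0.941), and Nfe2l2 like Rbbp7 (r = 0.938) and Cesl1 (r = 0.891). Taldo1 was most like Gmfb (r = 0.937) and Pcmt1 (r = 0.910), Idh1 like Mtmr10 (r = 0.928) and Tfb1m (r = 0.914), and Tkt like Slc25a11 (r = 0.924) and Chid1 (r = 0.901). Keap1 (Map3k11, r = 0.831) and Bach1 (Mier1, r = 0.845), which like Tkt did not pass the F test, had the lowest of these values together with their second matches, Ubxn7 and Csnk1a1.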

How the data were processed

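The deposited files hold 1 spot intensity per array position, written for the authors by Feature Extraction (10.7.1.1, per the file headers), background-subtracted and detrended within the array but not normalized between arrays. Of 58717 gene spots per array, spots marked as outliers (250 to 354) were left out, the rest were put on the log2 scale, the log2 of the array's 75th percentile was subtracted, and spots of a probe were averaged. Control spots (4259) were not used. Symbols came from the RefSeq gene table of assembly GRCr8 through each probe's transcript accession (21229 of 45598 gene probes). Since the headers give rn4, an older build, coordinates are given with the RefSeq promoters only. A probe was kept when every array of some group (3 arrays) read it well above background (23562 probes, 7 of them with a missing value and left out), and the brightest probe of a gene was used, which left 19803 genes, where probes without a RefSeq symbol stand under the files' own transcript name.

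Testing used limma 3.58.1 under R 4.3.3, with 1 model of 5 group means over 15 arrays, in 10 comparisons plus an F test. Within each, p-values were adjusted by Benjamini-Hochberg and called below 0.05. The step was tested on simulated data with known changes. Alternatives were normexp background (offset 50), quantile and median scaling, no filter and a stricter one, other probe rules, slide or replicate number as a block, single slides, 2 groups alone, adjustment over all comparisons and leaving out each array. The number of arrays limits the precision. The replicate numbers do not pair the arrays: 2 of 30 same-number pairs correlated above 0.1 after group means were removed. The 9 genes and all lists were chosen with earlier results of these data known. Named from the lists were the 4 genes of each with the largest called change against DMSO, and Nqo1, Gclm and Sqstm1 whatever their values; for each of the 9 genes, the 2 most correlated named genes. 1 list gene is not reported here and was left out of its list's counts.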

Additional observations from a re-analysis of the deposited data

How the results depend on the processing

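Of the changes called among the 9 genes, those of Mafg with 2,7-naphthalenediol and of Me1 with 1,5-naphthalenediol, both against DMSO, passed under every alternative. Values called in the reported fit or under the alternative changed sign 9 times, each with another choice of probe. Among the values not called against DMSO, the slide block turned that of Pgd with naphthalene (0.06) and those of Tkt with 1-naphthol and naphthalene (0.06 and 0.05), among others. On its dimmer probe Mafg was at -0.032 with 1-naphthol and -0.083 with naphthalene against DMSO, at 0.14 for 1,5-naphthalenediol against naphthalene and at 0.42 for 2,7-naphthalenediol against naphthalene (0.20 as the mean of both probes, -0.02 on the brighter). Sqstm1 with 1,5-naphthalenediol was at 0.088 as the mean of its probes, and Rbks, whose probes disagree, was at 0.217 with 2,7-naphthalenediol, 0.043 with 1,5-naphthalenediol and 0.141 with naphthalene. The cause was not tested.

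The count of the 9 genes called moved as given below, and under the alternatives not named for a comparison it stayed within 1.5 times. Calls over all genes moved too. Against DMSO, 4980 of 19803 were called with naphthalene in the reported fit, 6736 with median scaling and 144 with the fixed slide block. With 1-naphthol they were 4128, 4475 and 223. No filter gave 2181 of 38995 with naphthalene and 1966 with 1-naphthol. The moves are therefore no result about the 9 genes as a group. With 2,7-naphthalenediol against DMSO, 1 became 2 with median scaling, slide as a fixed or random block, or adjustment over all comparisons (1 to 2 with an array left out). With 1,5-naphthalenediol, 2 became 1 in a fit of the 2 groups alone (1 to 2). With 1-naphthol, 3 became 1 with median scaling and 0 with no filter or either slide block (1 to 3). With naphthalene, 2 became 5 with median scaling, 0 with the fixed slide block, and 1 with quantile scaling, no filter, the mean of probes, the random slide block, the replicate block, the 2 groups alone or adjustment over all comparisons (1 to 4). Between the diols, 4 became 2 with quantile scaling or slide 1 alone, 1 with no filter and 0 with the 2 groups alone (2 to 5). For 1,5-naphthalenediol against 1-naphthol, 1 became 3 with normexp and 0 with no filter, either slide block, slide 2 alone or the 2 groups alone (0 to 2). For 1,5-naphthalenediol against naphthalene, 5 became 3 with the fixed slide block, 0 on slide 2 alone and 1 with the 2 groups alone (5 to 6). For 2,7-naphthalenediol against 1-naphthol, 2 became 1 with quantile scaling and 0 with no filter or either slide block (1 to 2). For 2,7-naphthalenediol against naphthalene, 1 became 2 with normexp, quantile scaling or the mean of probes and 0 with no filter or either slide block (0 to 2). For 1-naphthol against naphthalene, 1 became 2 with adjustment over all comparisons and 0 with no filter, slide 2 alone or the 2 groups alone (1 to 2). At limma's unadjusted p below 0.05 the fixed slide block gave 2 and 2 genes for 1-naphthol and naphthalene against DMSO, and 0, 1 and 0 for the pairs that it brought to 0 in the order given. The count of 6 in the F test ran from 5 to 7.

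The replicate block, whose numbers gave no sign of pairing (the best match of 3 of 15 arrays had their own number), moved only the naphthalene count, from 2 to 1 as Idh1 was lost. Median or quantile scaling moved the median of all genes by less than 0.1. Against DMSO, median scaling moved it by -0.086 with naphthalene and by -0.047 to -0.049 with the other compounds. Changes of the 9 genes were of like size, with a median absolute difference from DMSO of 0.08 to 0.10. The files have no mean signal column, so normexp, chosen after seeing the data, used the median signal, and the planned version was not run. Most changes of the 9 genes were below 0.3 on the log2 scale, and the 3 arrays per group and the dim signal of Bach1 limit what could be detected.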
